A study of Mus musculus with 2 samples.

Results

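Serpins are the serine protease inhibitors, a gene family that most mammals hold in many copies. The members studied here are the mouse genes whose official symbol starts with Serpin, a clade letter from a to i and a number. The RefSeq gene table lists 68 such symbols reported on here, and probes matched 59 of them out of 20284 genes on the array. Clade A holds 23 of the 59, clade B 27, clades F and I 2 each, and clades C, D, E, G and H 1 each. The other 9 symbols (Serpina1b, Serpina3d-ps, Serpina3e-ps, Serpina3g, Serpina3l-ps, Serpina16, Serpinb1-ps1, Serpinb9h and Serpine3) were not analysed here.

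The samples were total liver RNA of male C57BL/6 mice with liver fibrosis. The treated group received recombinant TSG-6 (labelled Rh_TSG-6) intravenously, a secreted protein that binds hyaluronan, and the control group received PBS. Liver RNA was taken 2 weeks later, equal amounts from 3 mice were pooled for each group, and a single one-colour Agilent array was run per pool. Both groups share the fibrosis, whose induction, like the age of the mice and the dose, is not given in the sources used here, and no liver without fibrosis was analysed. With 1 pool per group there is no replicate and no test, every difference is that between these 2 pools, and array and group cannot be told apart.

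A typical serpin presents an exposed reactive centre loop as bait. The protease cuts the loop, becomes covalently bound, and is dragged across the serpin as the loop folds into its central sheet, so that both molecules are used up. The liver secretes many of the serpins of blood plasma, among them the inhibitors of neutrophil elastase, thrombin, plasmin and complement. Clade B members lack a classical signal peptide and act mostly inside cells. Some members inhibit no protease: Serpina6 and Serpina7 carry hormones, and Serpinh1 is a collagen chaperone.

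A level is the log2 processed signal of a gene's probe less the 75th percentile of its own array. A difference is the level in the TSG-6 pool less that in the PBS pool. A gene was called measured when its probe was well above background on both arrays and carried no outlier flag. Of the 59 serpins, 37 were measured, 6 were above background on 1 array, 10 on neither, and 6 had lost their spot to a flag on at least 1 array. The probe of each gene has its own efficiency, so levels are compared between the pools and not between genes. Replicate spots of one probe gave an SD of 0.126 for a log2 difference (327 probes), which is spot noise and leaves out the spread between mice.

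Each array held 59305 spots that were not controls, none of them saturated, and 73.1% of spots with PBS and 73.9% with TSG-6 passed the scanner software's background test. Outlier flags covered 3.40% and 6.44%. The liver label was borne out by the hepatocyte markers: 6 of 9 on the array were measured, none was below background, and albumin (Alb) had levels of 4.31 and 4.67.

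Among the 37 measured serpins, 8 stood 2-fold or more apart between the pools, 3 of them higher with TSG-6 and 5 lower. These 8 are 21.6% of the measured members, beside 7.23% of the 15151 genes measured on the whole array (2.94% higher and 4.29% lower). The 3 higher genes were Serpinb1a, Serpinb2 and Serpina6, and the 5 lower were Serpina7, Serpina4-ps1, Serpinb1b, Serpina12 and Serpina9. The median difference was 0.14 over the measured serpins and 0.08 over all genes, and it turned to -0.12 under quantile normalization, -0.23 under spike-in scaling and -0.07 under loess. Set against the median of all genes in the same setting, the serpin median lay between -0.09 and 0.07 in every alternative. Members past 2-fold thus stood on both sides of a family whose middle was near that of the array.

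**Figure D1:**
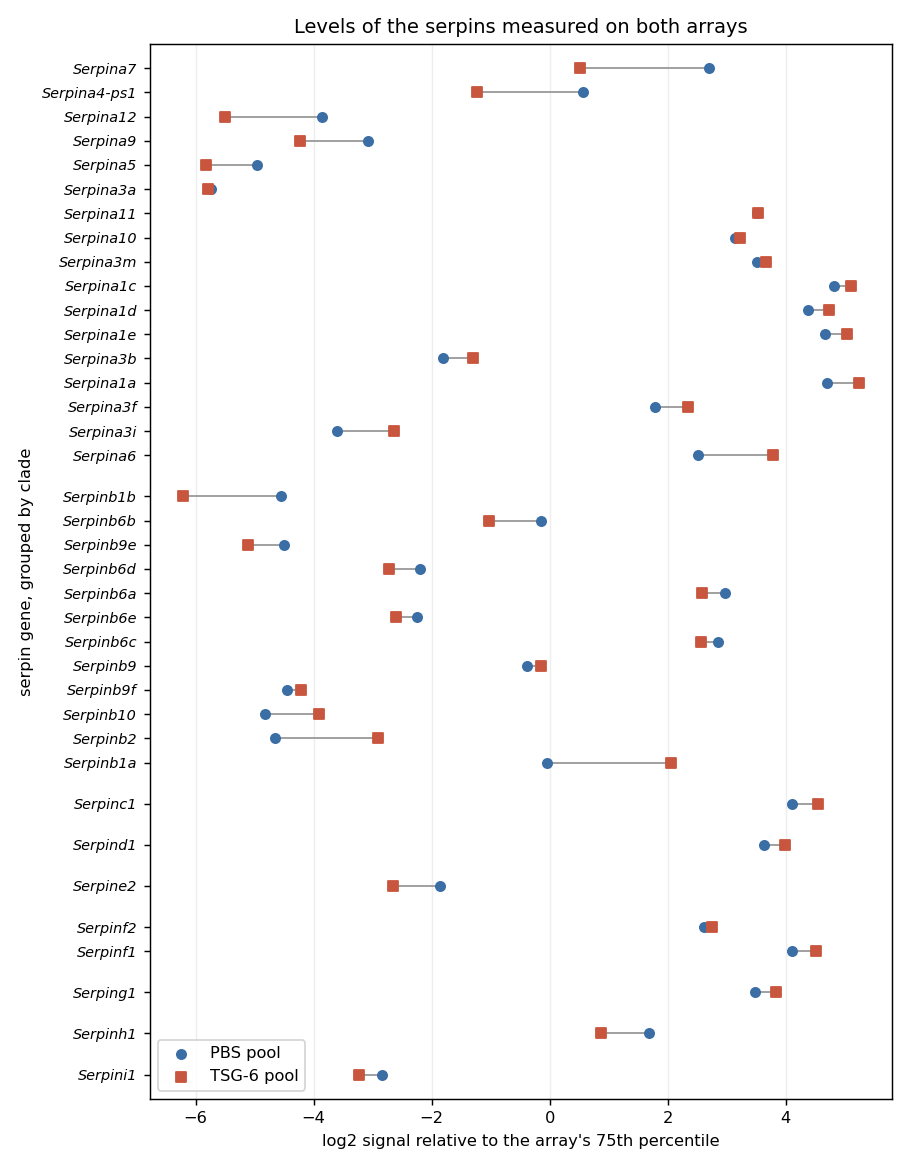
Levels of the 37 serpins measured on both arrays, as log2 signal less the 75th percentile of each array (x axis), with 1 gene per line grouped by clade; circles are the PBS pool, squares the TSG-6 pool, and each point is 1 array of 3 pooled mice. Serpina7 is at 2.70 and 0.51 and Serpinb1a at -0.05 and 2.05 in the PBS and TSG-6 pools, while the bright Serpina1 genes lie close together.

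The antitrypsin genes of clade A encode the main plasma inhibitors of neutrophil elastase. They are near-identical copies side by side on chromosome 12, and their upstream sequences are shown to compare the copies there. These bases lie before the annotated start, so their identity does not show which copy a probe binds. In the RefSeq promoter table of build GRCm38.p6, the 250 bases before the annotated start were 92.1% to 97.9% identical between the 4 copies, over 187 to 245 aligned bases. Capitals mark the core of the HNF1 motif, GTTAAT, bound by the hepatocyte factor HNF1 alpha, and the AP-1 motif TGANTCA.
Serpina1a, chr12:103863620-103863869, minus strand: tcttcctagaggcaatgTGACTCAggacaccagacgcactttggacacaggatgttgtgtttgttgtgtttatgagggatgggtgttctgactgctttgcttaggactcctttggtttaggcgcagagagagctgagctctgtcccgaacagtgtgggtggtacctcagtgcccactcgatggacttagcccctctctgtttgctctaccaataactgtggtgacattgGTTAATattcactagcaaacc
Serpina1c, chr12:103904951-103905200, minus strand: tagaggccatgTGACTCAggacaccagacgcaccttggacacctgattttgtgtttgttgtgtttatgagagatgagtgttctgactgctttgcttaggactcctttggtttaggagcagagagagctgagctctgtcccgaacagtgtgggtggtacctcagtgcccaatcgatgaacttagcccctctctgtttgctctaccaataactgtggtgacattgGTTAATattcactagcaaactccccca
Serpina1d, chr12:103773634-103773883, minus strand: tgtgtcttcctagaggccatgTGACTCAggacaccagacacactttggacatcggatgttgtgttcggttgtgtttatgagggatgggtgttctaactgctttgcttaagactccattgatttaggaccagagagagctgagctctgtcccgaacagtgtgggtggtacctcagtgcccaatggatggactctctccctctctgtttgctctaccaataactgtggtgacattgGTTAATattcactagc
Serpina1e, chr12:103956898-103957147, minus strand: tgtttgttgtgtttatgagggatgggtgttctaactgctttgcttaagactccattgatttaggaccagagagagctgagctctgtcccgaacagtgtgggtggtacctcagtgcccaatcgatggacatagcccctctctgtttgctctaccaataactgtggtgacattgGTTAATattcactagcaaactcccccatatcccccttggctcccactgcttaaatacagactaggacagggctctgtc

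GTTAAT is in all 4 windows. Counted from the annotated start, with upstream bases negative, it begins at -21 in Serpina1a, -27 in Serpina1c, -16 in Serpina1d and -78 in Serpina1e. On either strand, GTTAAT was found in 6.43% of the 32851 promoter windows of the table. It was in at least 1 window of 11 of the 54 serpin genes the table holds (20.4%), the 5 listed Serpina1 copies a to e among them. A gene can have more than 1 window, and these copies are near-identical, so the 2 shares are not alike and were not compared. TGANTCA was found in 6.75% of windows and in at least 1 window of 11 of 54 serpin genes. In Serpina1a, Serpina1c and Serpina1d it begins at -233, -239 and -229, and the window of Serpina1e lacks it. GTTAAT lies further from the annotated start in Serpina1e, so the matching stretch falls before its 250 bases and was not searched. A match describes the letters only.

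Serpina1a had a level of 4.70 in the PBS pool and 5.23 in the TSG-6 pool, a difference of 0.53. Serpina1e went from 4.66 to 5.03, Serpina1d from 4.38 to 4.73 and Serpina1c from 4.82 to 5.10, with differences of 0.38, 0.35 and 0.29. The TSG-6 pool was thus slightly higher in all 4, none near 2-fold, and a second probe of Serpina1e gave -0.06. The median of the group, 0.37, was near 0 under spike-in scaling and -0.04 under quantile normalization. The 4 values are not independent measurements, since probes of one copy can bind transcripts of the others. The remaining copy on the array, Serpina1f, was not well above background on either array.

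The Serpina3 genes, which arose in rodents from a single antichymotrypsin gene, inhibit chymotrypsin-like proteases such as cathepsin G. Of 10 on the array, 5 were measured, and none was 2-fold apart. Serpina3i went from -3.60 to -2.64 (0.96; its other probe 0.53), Serpina3f from 1.79 to 2.34 (0.55; its other probe 1.07) and Serpina3b from -1.81 to -1.30 (0.52). Serpina3m (3.51 and 3.67) and Serpina3a (-5.74 and -5.80) differed by 0.15 and -0.06. The group's median was 0.52 and stayed above 0 in each of the 11 alternatives, with a range of 0.15 to 0.81. Serpina3j was above background in the TSG-6 pool only, at least 1.38-fold higher.

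Serpina3n, the best known acute phase member of the group, had an outlier flag on the TSG-6 array. With flagged spots kept its level was 1.51 in the PBS pool and 1.09 in the TSG-6 pool, a difference of -0.42. Serpina3k, known for its inhibition of tissue kallikrein, was flagged on the same array and differed by 0.18, from 3.77 to 3.95. Serpina3c, flagged on both, differed by -0.21. Serpina3h, a transcribed pseudogene also flagged on both, differed by -1.36, from 1.69 to 0.33, so the group holds differences in both directions once its flagged spots are read. Of the 17 measured genes on the list of acute phase and STAT3 targets, Il1rn alone was past 2-fold (2.01-fold lower, and down to -0.72 on the log2 scale over the alternatives). Another 8 on the list had lost their spot to a flag on at least 1 array.

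The 2 hormone carriers differed in opposite directions. Serpina6 is corticosteroid-binding globulin, the plasma carrier of glucocorticoids, and Serpina7 is thyroxine-binding globulin. Serpina6 had a level of 2.51 in the PBS pool and 3.78 in the TSG-6 pool, 2.40-fold higher, and its second probe gave a log2 difference of 1.40 beside 1.27. Serpina7, the only clade A member on the array that lies on the X chromosome, had 2.70 and 0.51, 4.56-fold lower. The Serpina6 difference was 0.90 under spike-in scaling and 1.07 to 1.56 in the other alternatives, and that of Serpina7 ran from -2.55 to -1.90. Receptors and enzymes of these hormones moved less: the glucocorticoid receptor Nr3c1 differed by 0.16, Hsd11b1, which regenerates active glucocorticoid, by 0.56, the thyroid hormone receptor Thrb by -0.15 and the deiodinase Dio1 by 0.60. Of the other carriers listed, Alb differed by 0.37. Ttr was flagged on both arrays and so not measured, and it differed by 0.19 with flagged spots kept. Angiotensinogen (Agt), a serpin by descent whose symbol falls outside the family rule, differed by 0.30.

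The promoter of Serpina7 is shown because it holds the same GTTAAT letters as the antitrypsin copies. Its transcript lay on the other side of 0 from theirs, but this depends on the scaling. Under quantile normalization Serpina1c, Serpina1d and Serpina1e were below 0 too (-0.17, -0.04 and -0.04), and Serpina1a was at 0.08. Relative to the first of its annotated starts the motif begins at -57, and TATAAA, found in 12.4% of windows, begins at -10. Relative to the second start they begin at -74 and -27. Capitals mark both.
Serpina7, chrX:139085237-139085486, minus strand: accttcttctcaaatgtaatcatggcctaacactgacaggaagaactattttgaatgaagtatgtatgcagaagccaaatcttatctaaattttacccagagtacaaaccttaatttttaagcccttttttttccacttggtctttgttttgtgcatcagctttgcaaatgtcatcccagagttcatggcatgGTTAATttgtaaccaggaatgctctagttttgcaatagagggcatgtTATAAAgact

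The other lower members of clade A were dimmer or less well known. Serpina4-ps1, a transcribed pseudogene, had levels of 0.56 and -1.24 and was 3.48-fold lower in the TSG-6 pool. Serpina12, the adipokine vaspin, had -3.86 and -5.50 (3.12-fold lower), and Serpina9, a serpin of germinal centre B cells, -3.08 and -4.24 (2.23-fold lower). Each rests on 1 probe. Under normexp background correction the log2 differences of Serpina12 and Serpina9 were -0.90 and -0.75, both under 2-fold, and that of Serpina9 was -0.87 with the percentile of unflagged spots.

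Among the serpins of blood clotting and complement none was past 2-fold, and the dim Serpina5 was the furthest apart. Serpinc1, which encodes antithrombin, the main inhibitor of thrombin and factor Xa, had 4.11 in the PBS pool and 4.54 in the TSG-6 pool (0.43). Serpind1, heparin cofactor II, had 3.64 and 3.99 (0.35), and Serping1, the C1 inhibitor of complement and kallikrein, 3.48 and 3.83 (0.35; its other probe 0.49). Under spike-in scaling Serpinc1, Serpind1 and Serping1 came to 0.06, -0.02 and -0.01, and under quantile normalization to 0.06, 0.05 and 0.08. Serpina10, the protein Z-dependent inhibitor of factor Xa, had 3.13 and 3.22, and Serpina11 3.51 and 3.52. Serpina5, the protein C inhibitor, differed by -0.86, from -4.96 to -5.82. It was past 2-fold lower under quantile normalization (-1.02), loess (-1.09) and spike-in scaling (-1.23), and at -0.32 under normexp. The 6 measured hepatocyte markers, Alb and Apoa1 among them, differed by 0.17 to 0.37. Over the alternatives Alb came down to -0.01 and Apoa1 to -0.02. The proteases that these serpins and their relatives act on in blood had a median of 0.36 over 16 genes, from urokinase (Plau), the 1 gene past 2-fold and 3.99-fold lower, to F9 at 0.69. The thrombin gene F2 was at -0.08. In whole liver RNA, more cells of a type and more RNA per cell cannot be told apart.

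Of the inhibitors of the plasminogen system, which dissolves fibrin and activates matrix proteases, Serpinb2 was past 2-fold. Serpinb2, PAI-2 of activated monocytes, inhibits urokinase and had -4.65 in the PBS pool and -2.91 in the TSG-6 pool, 3.35-fold higher. Its value rests on 1 probe that was dim in the PBS pool, and its difference ran from 1.31 to 2.03 over the alternatives. Serpine2, protease nexin 1, had -1.86 and -2.66 (-0.80). Serpinf2, alpha-2-antiplasmin of hepatocytes, had 2.61 and 2.75 (0.14).

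Urokinase and its receptor lay on the other side of 0 from Serpinb2. Urokinase (Plau) had -2.82 and -4.82, 3.99-fold lower, and its receptor Plaur 0.50 and -1.49, 3.995-fold lower. Thrombomodulin (Thbd) differed by -0.97 and annexin A2 (Anxa2), a plasminogen receptor, by -0.99, while vitronectin (Vtn) differed by 0.41. Tissue plasminogen activator (Plat) had a flagged spot on the TSG-6 array and differed by -2.15 with it kept. Plau was counted with the blood proteases, and of the 9 genes listed as plasminogen partners 1, Plaur, was past 2-fold. Anxa2 and Thbd were past it in at least 1 alternative, at -1.36 and -1.34 under spike-in scaling.

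The promoter of Serpinb2 is shown as that of a higher member. Relative to the first annotated start its AP-1 motif TGANTCA begins at -94 and TATAAA at -29, and capitals mark both.
Serpinb2, chr1:107511173-107511422, plus strand: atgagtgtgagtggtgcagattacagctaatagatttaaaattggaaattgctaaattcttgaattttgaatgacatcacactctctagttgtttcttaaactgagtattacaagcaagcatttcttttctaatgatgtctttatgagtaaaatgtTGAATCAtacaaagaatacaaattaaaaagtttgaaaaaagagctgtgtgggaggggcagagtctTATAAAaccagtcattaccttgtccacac

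No promoter is printed for Serpinb1a or Serpina6. Those of Serpina12 and Serpinb1b held none of the 4 motifs searched on both strands. The fourth motif, beside those for HNF1, AP-1 and the TATA element, was the STAT site TTCNNNGAA. It was in 7.02% of windows and in at least 1 window of 8 of 54 serpin genes, again windows against genes. Serpinb2 is among the 8, through a second window not printed here: relative to its second annotated start the site begins at -77.

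Serpinh1 and Serpinf1 inhibit no protease. Serpinh1, also called HSP47, is the collagen chaperone of the endoplasmic reticulum, and it had 1.67 in the PBS pool and 0.87 in the TSG-6 pool, a difference of -0.80 (1.74-fold lower). It ran from -1.17 to -0.51 over the alternatives. Of 17 collagen chains and folding partners 5 were at least 2-fold lower and none higher, with a median of -0.58: Plod2 (2.76-fold), Fkbp10 (2.52-fold), P4ha2 (2.12-fold), Col5a1 (2.07-fold) and Col5a2 (2.03-fold). Each of them except Fkbp10 was under 2-fold in at least 1 alternative, with differences down to -0.58 (Plod2), -0.80 (P4ha2), -0.76 (Col5a1) and -0.73 (Col5a2). Markers of activated stellate cells moved with Serpinh1: 5 of 10 were at least 2-fold lower, their summed scaled signal was 56.9 in the PBS pool and 36.3 in the TSG-6 pool, and none was below background. Their part in the Serpinh1 difference was not tested. Serpinf1, the anti-angiogenic factor PEDF, had 4.09 and 4.51 (0.42; its other probe 0.67). Its difference was 0.05 under spike-in scaling and 0.06 under quantile normalization. In clade I, neuroserpin (Serpini1) had -2.84 and -3.23 (-0.39), and Serpini2 was not well above background on either array.

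**Figure D2:**
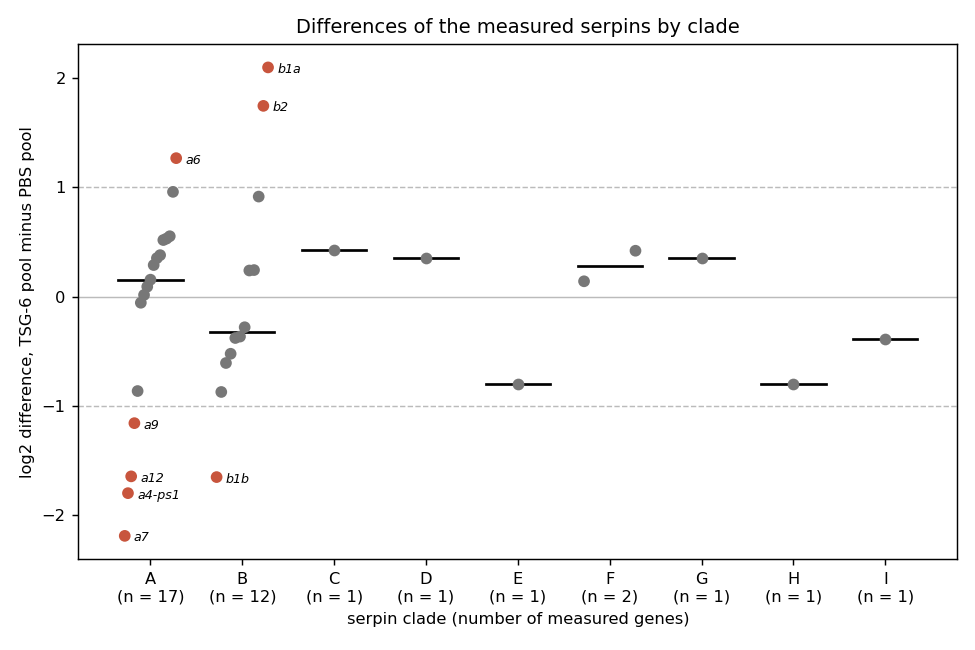
Log2 difference (TSG-6 pool minus PBS pool, y axis) of each measured serpin by clade (x axis, with the number of genes); each point is 1 gene, coloured where it is at least 2-fold apart, the black bar is the clade's median and dashed lines mark 2-fold. Clade A has 1 gene above and 4 below the dashed lines, clade B 2 above and 1 below, and the median is 0.15 in clade A and -0.32 in clade B.

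Clade B serpins, the intracellular branch, included the measured serpin that was highest in the TSG-6 pool relative to the PBS pool. Serpinb1a inhibits neutrophil elastase, cathepsin G and proteinase 3 and is abundant in neutrophils. Its level was -0.05 in the PBS pool and 2.05 in the TSG-6 pool, 4.27-fold higher, and its difference was 1.73 or more in each of the 11 alternatives. Serpinb1b, a close copy of it on chromosome 13, went the other way, from -4.56 to -6.21 (3.14-fold lower), though it was dim and differed by -0.59 under normexp. The third copy, Serpinb1c, had a flag on both arrays and differed by 1.49 with it kept, from -1.67 to -0.18. Each of these values rests on 1 probe. Copies this similar can share transcripts on a probe, so the single values of Serpinb1a and Serpinb1c are uncertain.

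The proteases that Serpinb1a inhibits were higher in the same pool. Cathepsin G (Ctsg) went from -2.38 to 1.59, 15.6-fold higher, neutrophil elastase (Elane) from -4.80 to -1.61, 9.10-fold higher, and proteinase 3 (Prtn3) from 1.44 to 2.72, 2.42-fold higher. Of 11 granule and cytotoxic proteases 6 were at least 2-fold higher, the other 3 being Mcpt4 (2.38-fold), Prss57 (2.29-fold) and Cma1 (2.14-fold), and the pancreatic-type elastase Cela1 was 3.30-fold lower. Cela1 is itself on the list of exocrine pancreas markers. Of 5 measured there, 3 were at least 2-fold lower, namely Cela1, Prss2 (9.55-fold) and Ctrb1 (5.30-fold), and 1 was higher (Cela2a, 2.44-fold). Another 4 were above background with PBS alone. The summed scaled signal of the 5 measured was 1.39 in the PBS pool and 0.518 in the TSG-6 pool. Cela1, with levels of 0.17 and -1.55, was the brightest of them in both pools, so that sum is mostly its own signal. The part of the other markers in the Cela1 difference was not tested. Mcpt4, Prss57, Cma1 and Prtn3 were under 2-fold in at least 1 alternative, with log2 differences down to 0.72, 0.70, 0.52 and 0.91. Neutrophil markers moved with Serpinb1a: 6 of 11 were at least 2-fold higher and none lower. Elane and Prtn3, already given as proteases, are among these 6, as are Mpo (14.8-fold), Ngp (12.7-fold) and Ltf (11.2-fold). S100a9 differed by 0.18 and Cxcr2 by -0.19. The summed scaled signal of the 11 neutrophil markers was 34.4 in the PBS pool and 65.9 in the TSG-6 pool. No neutrophil marker was below background, and the part of these markers in the Serpinb1a difference was not tested.

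**Figure D3:**
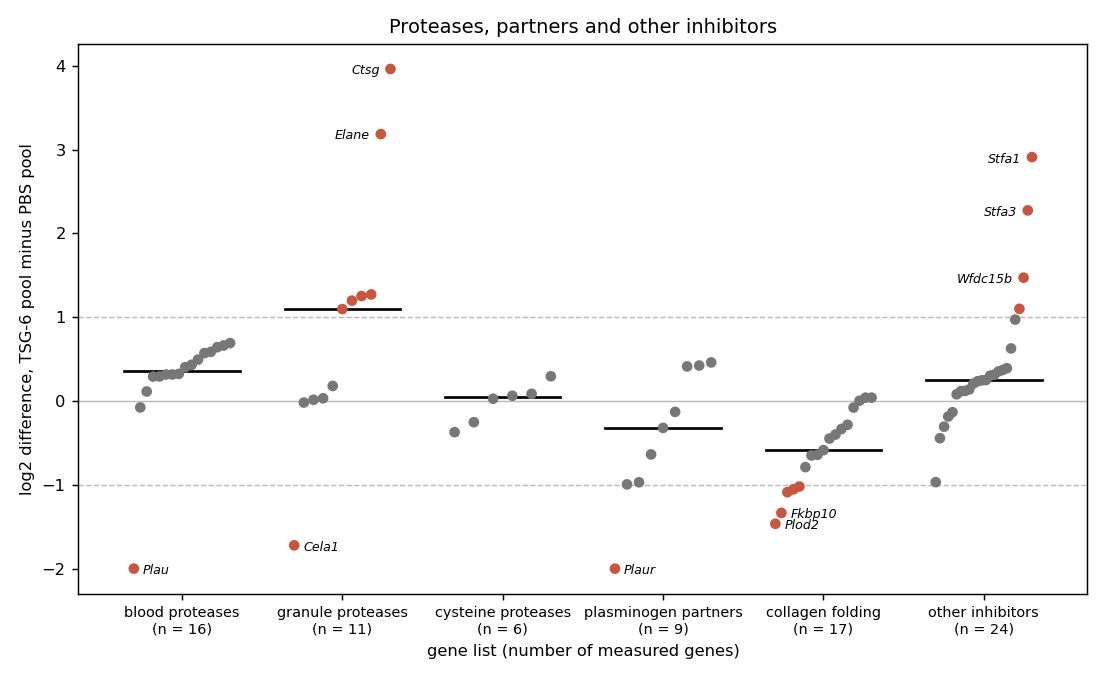
Log2 difference (TSG-6 pool minus PBS pool, y axis) of measured genes on 6 lists of protease targets, partners and other inhibitors (x axis, with the number of genes); points are genes, coloured where at least 2-fold apart, black bars are list medians and dashed lines mark 2-fold. Ctsg and Elane stand highest among the granule proteases, with Plau and Plaur lowest on their lists.

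The Serpinb6 group, inhibitors of trypsin-like proteases and of cathepsin G, lay lower in the TSG-6 pool, apart from Serpinb6c at 0.01 with the percentile of unflagged spots. Serpinb6a had 2.96 in the PBS pool and 2.59 in the TSG-6 pool (-0.38), and Serpinb6b had -0.15 and -1.02 (-0.87). Serpinb6c, Serpinb6d and Serpinb6e differed by -0.28, -0.52 and -0.37. None of the 5 was past 2-fold, although Serpinb6b was, at -1.24, under spike-in scaling.

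Serpinb9, which shields cytotoxic lymphocytes and antigen-presenting cells from their own granzyme B, had -0.38 and -0.15 (0.24). Granzyme B itself (Gzmb) differed by 0.18, and none of 9 markers of T and NK cells was past 2-fold. Serpinb9f had -4.46 and -4.21 (0.24) and Serpinb9e -4.50 and -5.11 (-0.61). Serpinb9b and Serpinb9g passed background with PBS alone, which puts them at least 1.66-fold and 1.81-fold lower with TSG-6, and Serpinb9c and Serpinb9d passed in neither pool. The Serpinb9 genes thus gave no common direction.

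The clade B cluster on chromosome 1 was mostly not above background in these livers. Of its 12 genes on the array 6 were not well above background in either pool: Serpinb3a, Serpinb3c, Serpinb3d, Serpinb5 (the epithelial serpin maspin), Serpinb11 and Serpinb13. Serpinb7 and Serpinb3b were above background in the TSG-6 pool only, at least 1.56-fold and at least 1.38-fold higher, and Serpinb12 passed with PBS alone, at least 1.20-fold lower with TSG-6. Many of these are known as serpins of skin and other stratified epithelia. Of 8 measured markers of such epithelia, 6 were below 0 and 2 above, with a median of -0.56. At least 2-fold lower were 3 of the 8, namely Sprr1a (30.1-fold), Ivl (6.87-fold) and Krt5 (6.47-fold), whose other probe gave a log2 difference of 0.19. The 2 above 0, Krt10 and Trp63, differed by 0.47 and 0.41, and Krt10 came down to -0.16 over the alternatives. Sprr1b was above background with PBS alone, at least 141-fold lower with TSG-6. Krt6a was above it with TSG-6 alone, at least 1.15-fold higher. Serpinb10, bomapin of blood-forming cells, had -4.83 and -3.92 (0.91), which makes it and Serpinb2 the only 2 measured in both pools. Serpinb8, a furin inhibitor, was flagged on the PBS array and differed by 0.85 with the flag ignored, from 4.50 to 5.35.

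Between clades, the median difference was 0.15 over 17 measured genes of clade A and -0.32 over 12 of clade B, with 11 of 17 and 5 of 12 above 0. The clade A median was below 0 under quantile normalization, spike-in scaling and loess, and that of clade B was below 0 in every setting. The medians lay 0.48 apart, and 0.11 apart with flagged spots kept. Differences ran from -2.19 to 1.27 within clade A and from -1.65 to 2.10 within clade B. Past 2-fold were 5 of 17 measured members of clade A, 3 of 12 of clade B and 0 of 8 of clades C to I, beside 7.23% of all measured genes. Under spike-in scaling clades C to I held 2 of 8, Serpine2 and Serpinh1. Clade counts this small were not tested against each other.

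**Figure D4:**
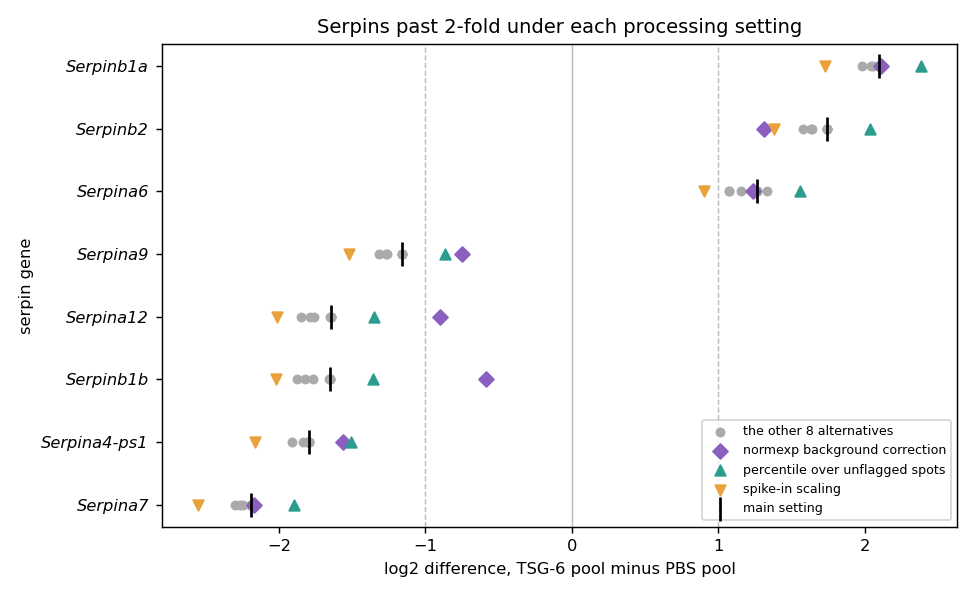
Log2 difference (TSG-6 pool minus PBS pool, x axis) of the 8 serpins past 2-fold (y axis) under the main setting (black bar) and 11 processing alternatives (symbols); dashed lines mark 2-fold. All points of a gene stay on its side of 0, and Serpinb1a, Serpinb2, Serpina4-ps1 and Serpina7 stay beyond 2-fold under each alternative.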

How the data were processed

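The arrays were 1 PBS and 1 TSG-6 Agilent one-colour scan. The deposited intensity values are processed signals, background-subtracted by Feature Extraction 11.5.1.1 per the file headers (10.7 per the submitters' processing notes). The outlier, saturation and background flags are the authors' other deposited columns, per the file headers. The deposited log2 table equals the log2 intensity relative to the array's 75th percentile within 0.001 for 100% of probes up to a constant, and served as an alternative. The array design build is mm9 per the file headers, and symbols, chromosomes and promoters come from RefSeq tables of GRCm38.p6.

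Control spots and outlier spots were left out, log2 signal was set relative to the 75th percentile, and spots of a probe were averaged. Probes were matched to genes by RefSeq accession (26762 of 55681 matched). Of several measured probes the one with the highest mean signal was used, and 15 serpins had 2 probes. A gene well above background on 1 array only has a bound, set at the lowest signal of a probe well above background. Probe sequences were not used here, so near-identical copies may share signal. With 1 array per group nothing was tested, and 2-fold served as a fixed size rule. The number of arrays, 1 per group, limits the precision.

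Values on both arrays were given for each serpin past 2-fold, for the 5 of highest mean signal and for members of known function. The members, the 8 lists of other genes and the 9 marker lists were chosen with earlier results of these data known. One item of the family is not reported here and is left out of its counts. The alternatives were normexp background correction (offset 50), quantile, median, unflagged-percentile, spike-in and loess scaling, flagged spots kept, dim probes left unfiltered or filtered more strictly, the mean over probes and the deposited table. Python 3.11.15, numpy 2.4.6, pandas 2.3.3, statsmodels 0.14.6, R 4.3.3 and limma 3.58.1 were used, and the code was tested on simulated data.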

Additional observations from a re-analysis of the deposited data

How the results depend on the processing

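Of 407 serpin differences under 11 alternatives, 270 stayed within the spread of replicate spots. Many of these could hardly move. Keeping flagged spots and changing the filter on dim probes left the differences of the measured serpins as they were. Median scaling and the deposited table shift all genes by less than that spread, so the count of 270 says little about stability. Of 37 measured serpins, 24 kept their sign in each alternative. The 3 higher serpins became 5 with the percentile of unflagged spots and 5 with no filter on dim probes, and the 5 lower became 2 under normexp, 9 under spike-in scaling and 8 with no filter. The serpin median of 0.14 became -0.12 under quantile normalization, 0.43 with unflagged spots, -0.23 under spike-in scaling and -0.0742 under loess. The clade A median of 0.15 became -0.12, 0.44, -0.21 and -0.0742 in that order, and 0.29 with no filter. The clade B median of -0.32 became -0.19 under normexp, -0.0334 with unflagged spots, -0.69 under spike-in scaling, -0.45 under loess, -0.0208 with flagged spots kept and -0.0227 with no filter. The median of all genes moved too, from 0.08 to -0.03, 0.37, -0.29 and -0.05 under quantile, unflagged, spike-in and loess scaling. Median, unflagged and spike-in scaling shift all genes alike by construction, while quantile and loess scaling shift a gene by its signal level. Under quantile normalization the bright Serpina1a went from 0.53 to 0.08, while the dimmer Serpinb9 stayed at 0.24. The higher share of genes past 2-fold was 40.7% and became 33.1%, 73.0%, 12.1% and 28.6% in that order, and 29.5% with median scaling. For serpins, 3 of 8 were higher, and then 3 of 9, 5 of 9, 2 of 11 and 3 of 9 in that order, and 3 of 5 under normexp. The cause of the other changes was not tested. No paired analysis was possible because each group has 1 array. Signals near background limit Serpina12, Serpina9 and Serpinb1b. Serpinb2 was also dim in the PBS pool, at -4.65, and its difference fell from 1.74 to 1.31 under normexp.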

Other observations

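Protease inhibitors outside the serpin family included 4 of 24 measured genes at least 2-fold higher in the TSG-6 pool and none lower. Both counts changed with the scaling: under spike-in scaling Stfa2l1 came to 0.73 and Timp1 to -1.33 on the log2 scale. Genes of the stefins, intracellular inhibitors of cysteine cathepsins, made up 3 of them. Stfa1 had levels of -5.21 in the PBS pool and -2.30 in the TSG-6 pool (7.52-fold higher), Stfa3 -4.19 and -1.91 (4.84-fold higher), and Stfa2l1 was 2.15-fold higher. Stfa2 differed by 0.97. Not all stefins were higher: stefin B (Cstb) had 3.83 and 3.39 (-0.44), and Csta1 was not well above background on either array. The Stfa genes are near-identical copies whose probes may share signal. Wfdc15b, of the whey acidic protein family, had -0.93 and 0.54 (2.77-fold higher). Slpi, a secreted inhibitor of elastase and cathepsin G, differed by -0.30, and Timp1, the inhibitor of matrix metalloproteinases, by -0.97. None of 6 measured cysteine proteases was 2-fold apart, with a median of 0.05. Neutrophil markers moved with the Stfa genes as given beside Serpinb1a, and their part was not tested.

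Mast cell and basophil genes included 4 of 8 measured at least 2-fold higher, led by the basophil protease Mcpt8 with a log2 difference of 3.08, and Fcer1a differed by 1.06. Under normexp Mcpt8 came to 1.74, and the other 3, Fcer1a (0.66), Mcpt4 (0.72) and Cma1 (0.52), were under 2-fold. Hdc differed by -0.33. The summed scaled signal of the 8 measured was 2.29 in the PBS pool and 2.27 in the TSG-6 pool. Hdc, with levels of 0.56 and 0.23, was the brightest of them in both pools and weighs most in that sum. The sum therefore says little about the 4 dimmer genes past 2-fold.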
